A study of Mus musculus with 6 samples.

Results

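The genes described here encode the enzymes that build cholesterol and fatty acids, together with the regulators of the sterol regulatory element-binding proteins (SREBPs) that switch these enzymes on. The 36 genes were taken from a list written by pathway membership, which was chosen with earlier results of these data known. They fall into 5 SREBP regulators, 20 genes of the sterol arm and 11 genes of the fatty acid arm. All 36 were found among the 18099 genes of the expression table, and all 36 passed the filter on low counts that left 14261 genes for testing.

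RNA sequencing was performed on Achilles tendon tissue that had been transected in neonatal mice and was collected a week after the injury. In *LysM-Cre; Ampkα1 fl/fl* mice, the lysozyme M locus drives Cre, which removes the floxed *Ampkα1* gene (*Prkaa1*) in myeloid cells, whereas the littermate *Ampkα1 fl/fl* mice carry the same floxed allele without Cre and served as controls. There were 3 mice in each group, called knockout and control below, and 1 library per mouse. The RNA came from whole tissue, in which fewer cells of a type and less RNA per cell cannot be told apart.

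SREBP proteins are held in the endoplasmic reticulum by Scap and the Insig proteins while sterols are plentiful. When sterols fall, Scap carries SREBP to the Golgi apparatus, where proteases release the part that enters the nucleus. Srebf2 mainly drives the sterol genes and Srebf1 the fatty acid genes, and AMP-activated protein kinase (AMPK) phosphorylates SREBPs and acetyl-CoA carboxylases as well as the reductase that controls the mevalonate pathway.

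The libraries held between 18076805 and 19479887 reads. *Lyz2*, whose locus carries the Cre, was read 7378, 7778 and 7372 times in the control mice. In the knockout mice it was read 9, 15 and 8 times, which matched the labels. The groups thus differed in *Lyz2* itself as well, and the part of this in other differences was not tested. The targeted gene *Prkaa1* had 39.2, 37.6 and 37.8 CPM (read counts scaled to the effective library size) in the controls against 32.6, 40.6 and 35.2 in the knockouts, a log2 fold change of -0.08 with a standard error (SE) of 0.09 (edgeR adjusted p = 0.744). These counts cover the whole gene in all cells of the tissue and are a weak check of a deletion in myeloid cells. Of 10 tendon markers, 5 were lower and 5 higher, with 1 called lower by edgeR (*Dcn*, -0.45, adjusted p = 0.0301), and the defining genes *Tnmd* and *Scx* were read in every library, at between 1546 and 2049 CPM for *Tnmd* and between 101 and 141 CPM for *Scx*. All fold changes below are knockout over control.

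To compare levels between genes, TPM values were used, in which reads are scaled to transcript length and then to the same total in each library. *Scd2*, a stearoyl-CoA desaturase that puts a double bond into saturated fatty acids, was the most abundant member in the controls at 247 ± 82.0 TPM (SD, n = 3). It was followed by *Hmgcs1*, the synthase that makes HMG-CoA, at 97.2 ± 51.2 TPM and by *Fdps*, which makes farnesyl diphosphate, at 96.6 ± 22.2 TPM. The lowest member was *Acacb*, the mitochondrial acetyl-CoA carboxylase, at 2.14 ± 0.587 TPM, while its cytosolic partner *Acaca*, which supplies malonyl-CoA for fatty acid synthesis, stood at 17.0 ± 2.52 TPM. In the plot of TPM by gene, the spread between control mice was widest relative to the level in members such as *Tm7sf2* (10.7 ± 6.46 TPM) and *Elovl6* (16.5 ± 9.06 TPM), and narrow in *Srebf1* (35.0 ± 0.777 TPM).

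**Figure D1:**
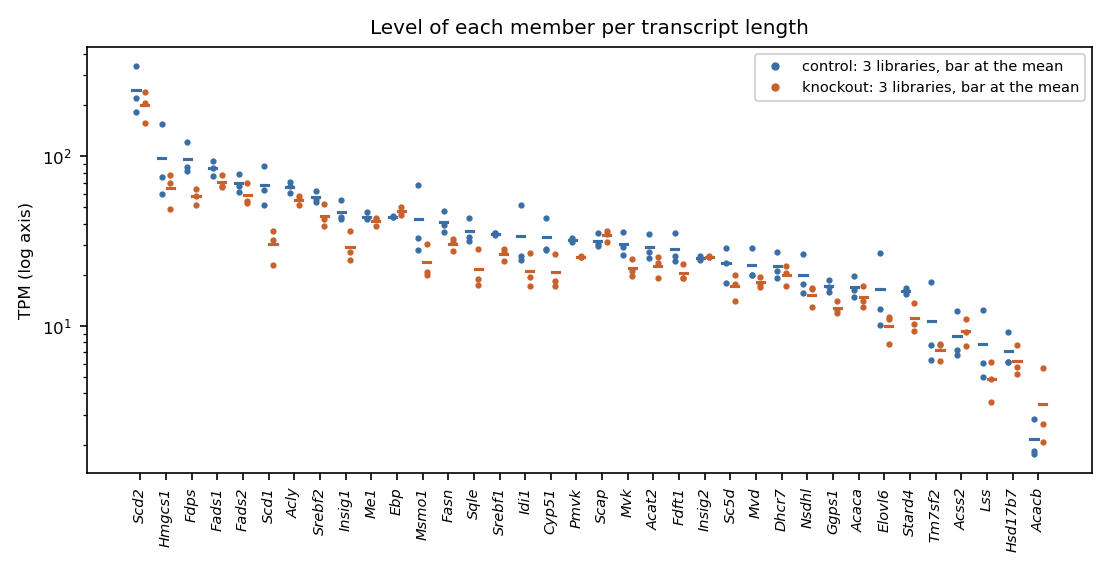
Level of each of the 36 genes in TPM (log axis), ordered by the control mean, with points for the 3 control and 3 knockout mice and bars at the group means. *Scd2* leads at a control mean of 247 TPM and *Acacb* is lowest at 2.14 TPM.

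Of the 36 genes, 31 had a lower fitted level in the knockout mice and 5 a higher one. The median log2 fold change was -0.39, compared with -0.00 over all 14261 genes. With edgeR's quasi-likelihood test and an adjusted p under 0.05, 1 member was called lower, *Srebf1*, where 0.568% of all genes were called lower. No member was called higher, against 0.33% of all genes. At an unadjusted p under 0.05, 18 members were lower and 0 higher, against 8.55% of all genes lower. DESeq2 called 11 members lower and 0 higher, where it called 2.65% of all genes lower.

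For 18 of the 36 genes every knockout mouse lay below every control mouse, a pattern found in 11.4% of all genes. The opposite order was seen in 1 member, *Ebp*, and in 8.94% of all genes. With 3 mice against 3, the exact permutation test (two-sided) cannot go below p = 0.1, and it gave p = 0.1 for each of these 19 genes. The plot of fold changes shows the intervals of the 3 groups of genes side by side.

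**Figure D2:**
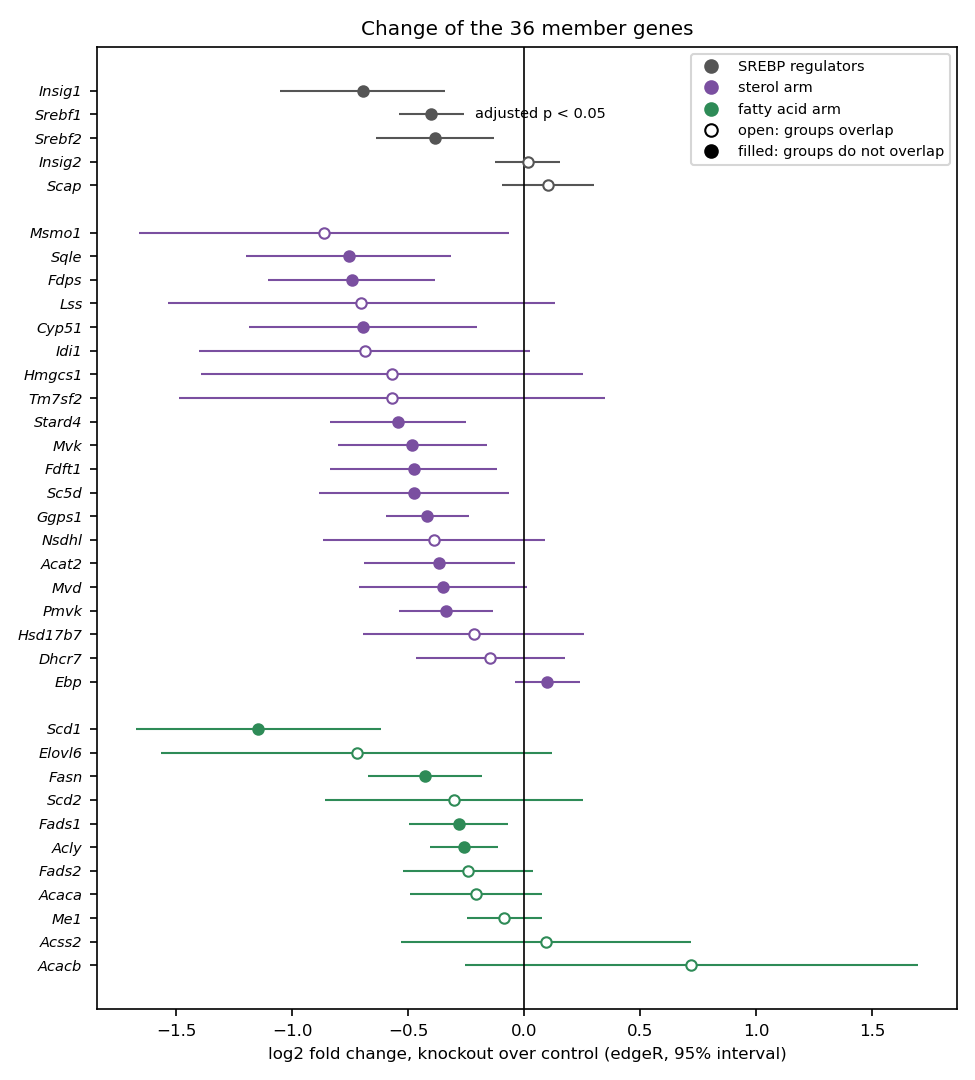
Log2 fold change, knockout over control, of each of the 36 genes with its 95% interval from edgeR, by group. Filled points mark the 19 genes whose groups of 3 mice do not overlap. Only *Srebf1* had an adjusted p under 0.05, and the lowest value was that of *Scd1*, at -1.15.

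*Srebf1* (NCBI Gene 20787, chr11:60199084-60224186 in GRCm38.p6) encodes SREBP-1, the transcription factor that chiefly activates fatty acid synthesis genes. Its level was 70.1, 70.6 and 70.6 CPM in the control mice and 55.4, 55.1 and 49.7 CPM in the knockout mice. The controls were nearly identical and every knockout lay below them. *Srebf1* fell by 24.2%, a log2 fold change of -0.40 (SE 0.06, edgeR adjusted p = 0.0412). The same size of change was not called with the replicate number as a block (adjusted p = 0.0816) or with a muscle marker score added to the model (0.115). Leaving out any mouse but knockout 2 also lost the edgeR call, with adjusted p-values of 0.194, 0.185 and 0.101 without control 1, 2 or 3 and 0.130 and 0.0860 without knockout 1 or 3, and the log2 fold change stayed between -0.43 and -0.35.

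The sequences before 2 of the 3 annotated starts of *Srebf1* and before that of *Insig1* are shown because these genes are the regulators with the strongest evidence and the largest difference, and that of *Hmgcs1* because it alone among the 29 members with a promoter window held the classical sterol regulatory element. They are from RefSeq (GRCm38.p6), read 5′ to 3′ in the direction of the gene, and cover the 250 bases before a start. Capitals mark 4 patterns on either strand. They are the sterol regulatory element TCACNCCAC and the pattern TCACNNGA, which shares its first letters but is not matched by that element. The others are the CCAAT box bound by NF-Y (ATTGG on the other strand) and the GC box GGGCGG bound by Sp1 (CCGCCC on the other strand).
Srebf1, chr11:60210472-60210721, minus strand: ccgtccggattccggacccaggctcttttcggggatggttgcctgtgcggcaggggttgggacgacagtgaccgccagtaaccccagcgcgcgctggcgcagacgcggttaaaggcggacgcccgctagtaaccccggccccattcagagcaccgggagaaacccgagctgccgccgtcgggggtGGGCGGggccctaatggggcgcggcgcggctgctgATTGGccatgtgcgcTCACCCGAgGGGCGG
Srebf1, chr11:60220628-60220877, minus strand: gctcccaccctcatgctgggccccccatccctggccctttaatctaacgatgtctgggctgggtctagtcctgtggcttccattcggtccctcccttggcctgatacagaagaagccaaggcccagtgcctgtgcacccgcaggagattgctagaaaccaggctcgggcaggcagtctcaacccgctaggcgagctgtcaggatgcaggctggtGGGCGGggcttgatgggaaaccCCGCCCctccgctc
Insig1, chr5:28071162-28071411, plus strand: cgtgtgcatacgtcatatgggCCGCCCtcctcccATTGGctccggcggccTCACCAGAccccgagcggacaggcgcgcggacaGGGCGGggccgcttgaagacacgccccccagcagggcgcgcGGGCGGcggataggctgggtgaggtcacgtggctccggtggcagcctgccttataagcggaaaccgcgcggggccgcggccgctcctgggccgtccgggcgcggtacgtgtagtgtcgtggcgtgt
Hmgcs1, chr13:119690101-119690350, plus strand: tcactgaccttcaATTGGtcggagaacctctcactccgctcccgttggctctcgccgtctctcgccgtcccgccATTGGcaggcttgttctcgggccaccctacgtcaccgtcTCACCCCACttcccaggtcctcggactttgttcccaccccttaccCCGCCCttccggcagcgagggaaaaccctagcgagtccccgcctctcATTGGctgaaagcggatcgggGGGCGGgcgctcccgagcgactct
The first *Srebf1* sequence carries a CCAAT box, a TCACNNGA match and a GC box within its last bases before the start. The second holds GC boxes and neither TCACNCCAC nor TCACNNGA. The window of the remaining *Srebf1* start, whose upstream part is chr11:60222582-60222831 on the minus strand, holds a CCAAT box and none of the other 3 patterns.

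Promoter windows of 300 bases (250 before and 50 after a start) were matched for 29 of the 36 genes, with 38 windows among them. The 7 members without a window were *Fads1*, *Fdft1*, *Fdps*, *Scd1*, *Scd2*, *Sqle* and *Stard4*, so their promoters were not searched. All genes here means the 27025 annotated genes with a window, more than the 14261 genes tested. Unlike the members, they were not limited to genes that passed the filter on low counts, and the shares among such genes were not computed. A CCAAT box was present for 24 of the 29 genes and for 41.1% of all genes with a window. A GC box was present for 23 of the 29 and for 38.2% of all genes. TCACNNGA was found for 7 of the 29, *Acss2*, *Dhcr7*, *Fads2*, *Idi1*, *Insig1*, *Insig2* and *Srebf1*, and for 13.6% of all genes. Genes with several windows have more places for a match. Among genes with 1 window, TCACNNGA was found for 4 of 23 members and for 12.2% of all genes. In the same genes the CCAAT box was found for 19 of 23 members against 38.2%, and the GC box for 18 of 23 against 35.2%. TCACNCCAC was found for 1 of the 29, *Hmgcs1*, and for 1.44% of all genes. In 1 of the 38 windows, matches of different patterns shared a base. These matches describe letters in the windows and were not tested as binding sites.

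The reads of *Srebf1* were split by the authors' counting over 7 listed transcripts, and 3 of these held 99.0% of them. The most abundant, NM_011480, took 64.7% of the reads, with 33.3, 46.7 and 39.5 CPM in the control mice and 44.7, 39.6 and 36.2 CPM in the knockout mice. These groups overlapped, with a log2 ratio of means of 0.01 (exact permutation p = 0.9). NM_001358314, with 26.0% of the reads, had 27.9, 17.1 and 21.0 CPM in the controls and 7.36, 10.7 and 12.5 CPM in the knockouts. Its groups did not overlap, and the log2 ratio was -1.11 (exact permutation p = 0.1). NM_001313979, with 8.33% of the reads, had 8.71, 6.57 and 9.75 CPM in the controls and 1.94, 3.48 and 0.597 CPM in the knockouts, a log2 ratio of -2.06 (exact permutation p = 0.1). The lower level of the gene was thus found in the 2 less abundant transcripts of these 3. Reads that fit several transcripts are shared out by the counting tool, so the split is less certain than the sum over the gene.

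**Figure D3:**
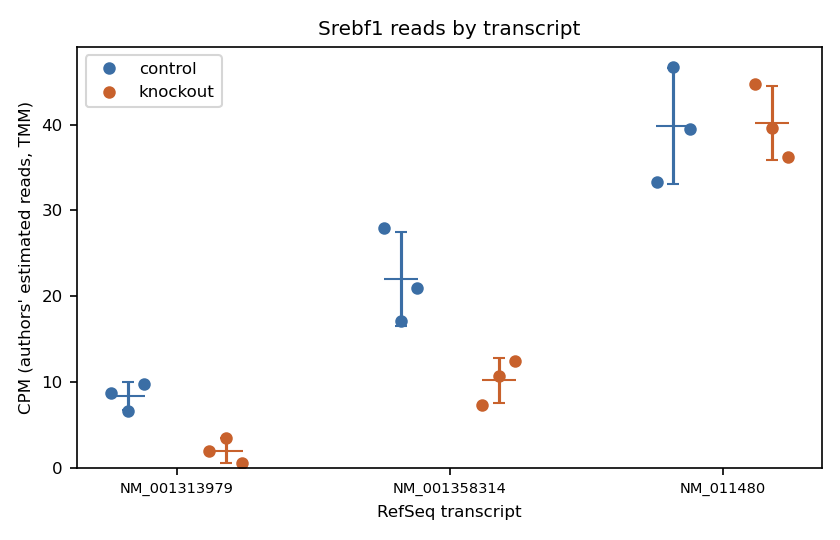
CPM of the 3 main *Srebf1* transcripts in each mouse (points), with the mean and SD of the 3 control and 3 knockout mice. The groups overlap for NM_011480 and are apart for NM_001358314 and NM_001313979.

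*Insig1* encodes a sterol-regulated protein that retains the Scap and SREBP complex in the endoplasmic reticulum, and it is itself an SREBP target. It was at 49.2, 52.6 and 63.9 CPM in the controls and at 28.9, 40.8 and 32.6 CPM in the knockouts. All 3 knockout mice were below all 3 controls, with a log2 fold change of -0.70 (SE 0.15, edgeR adjusted p = 0.0994). *Srebf2*, which encodes SREBP-2, the main activator of sterol synthesis genes, had 125, 127 and 143 CPM in the controls and 88.5, 116 and 98.2 CPM in the knockouts. The groups did not overlap, and the log2 fold change was -0.38 (SE 0.11, edgeR adjusted p = 0.169).

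The escort protein gene *Scap* and the other retention gene *Insig2* overlapped between the groups. *Scap* was at 58.4, 59.8 and 68.8 CPM in the controls and 71.9, 65.9 and 63.1 CPM in the knockouts, with a log2 fold change of 0.10 (95% interval -0.09 to 0.30). *Insig2* was at 28.6, 28.5 and 27.5 CPM in the controls and 28.4, 27.9 and 29.1 CPM in the knockouts, a log2 fold change of 0.01 (95% interval -0.13 to 0.16). The interval of *Insig2* did not reach the value of *Insig1*. Over the 5 regulators the median log2 fold change was -0.38, and 3 of 5 were lower without overlap, against 11.4% of all genes.

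In the sterol arm, 19 of the 20 genes were lower in the knockout mice and the median log2 fold change was -0.48. Without overlap, 11 of the 20 were lower, against 11.4% of all genes. All genes were lower at an unadjusted p under 0.05 in 8.55% and called lower by DESeq2 in 2.65%. None of the 20 passed edgeR's adjusted threshold, where the smallest adjusted p was 0.0686 for *Ggps1*, 11 genes had an unadjusted p under 0.05 and DESeq2 called 5 lower (*Fdps*, *Ggps1*, *Sqle*, *Cyp51* and *Stard4*). Without control 3 the median was -0.28 and 18 of the 20 were lower. Genes that are apart with all mice necessarily stay apart when a mouse is left out, so the 11 genes could only be kept. No further gene of the arm became lower without overlap, whereas the share of all genes rose to 18.8%.

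The early steps turn acetyl-CoA into mevalonate and then into isoprenoid units. *Acat2*, the cytosolic thiolase that joins 2 acetyl-CoA, was at 23.9, 22.8 and 30.3 CPM in the controls and 20.9, 21.5 and 17.3 CPM in the knockouts, apart from each other (log2 fold change -0.37, SE 0.14, edgeR adjusted p = 0.286, or -0.23 without control 3). *Hmgcs1* was at 120.3, 99.1 and 247 CPM in the controls and 113, 120.5 and 80.4 CPM in the knockouts. The *Hmgcs1* groups overlapped, since only control 3 stood above the others, and its log2 fold change of -0.57 (SE 0.35) became -0.07 without that mouse.

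Mevalonate kinase and the next enzymes were lower without overlap. *Mvk*, which phosphorylates mevalonate, had 17.99, 20.9 and 24.8 CPM in the controls against 14.7, 16.8 and 14.1 CPM in the knockouts (log2 fold change -0.48, SE 0.14, edgeR adjusted p = 0.169). *Pmvk*, which adds the next phosphate, had 13.5, 14.3 and 14.1 CPM against 11.1, 10.5 and 11.5 CPM (-0.34, SE 0.09, edgeR adjusted p = 0.139). *Mvd*, the decarboxylase that makes isopentenyl diphosphate, had 14.2, 14.8 and 20.6 CPM against 12.8, 13.6 and 12.5 CPM (-0.35, or -0.16 without control 3). The controls of *Pmvk* lay close together, whereas those of *Mvd* were spread by control 3.

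*Idi1*, the isomerase of isopentenyl diphosphate, overlapped between the groups. Its level was 32.6, 32.1 and 65.0 CPM in the controls and 25.0, 33.0 and 22.4 CPM in the knockouts (log2 fold change -0.69, SE 0.30, or -0.27 without control 3). *Fdps*, which joins isoprenoid units into farnesyl diphosphate, was at 38.1, 41.4 and 56.4 CPM in the controls and 27.2, 29.0 and 25.0 CPM in the knockouts. Every knockout was far below every control, with a log2 fold change of -0.74 (SE 0.15, edgeR adjusted p = 0.0883) that was -0.56 without control 3. *Ggps1*, which extends farnesyl to geranylgeranyl diphosphate for protein prenylation, was at 38.1, 37.1 and 37.0 CPM in the controls and 25.3, 29.6 and 29.1 CPM in the knockouts. Its controls differed by little and did not include a high control 3, and the log2 fold change was -0.42 (SE 0.08, edgeR adjusted p = 0.0686).

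Farnesyl diphosphate is then committed to sterols by squalene synthase and squalene epoxidase. *Fdft1*, the synthase, was at 32.9, 37.0 and 48.6 CPM in the controls and 26.4, 31.4 and 27.3 CPM in the knockouts (log2 fold change -0.48, SE 0.15, edgeR adjusted p = 0.212, or -0.30 without control 3). *Sqle*, the oxygen-requiring epoxidase and a rate-limiting step, was at 38.3, 41.9 and 52.1 CPM in the controls and 23.1, 33.3 and 21.9 CPM in the knockouts. Both genes kept the groups apart, and *Sqle* had a log2 fold change of -0.76 (SE 0.19, edgeR adjusted p = 0.130). *Lss*, which closes the ring to lanosterol, was at 16.6, 15.6 and 37.0 CPM in the controls and 14.9, 16.5 and 11.1 CPM in the knockouts. Only control 3 was high in *Lss*, and its log2 fold change of -0.70 (SE 0.35) was -0.19 without that mouse.

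The steps from lanosterol to cholesterol were less uniform. *Cyp51*, which removes the first methyl group of lanosterol, had 57.04, 58.4 and 87.2 CPM in the controls against 37.4, 51.8 and 35.9 CPM in the knockouts, with no overlap and a log2 fold change of -0.70 (SE 0.21, edgeR adjusted p = 0.187). *Msmo1*, the sterol methyl oxidase, had the lowest log2 fold change of the arm, -0.86 (SE 0.34, edgeR adjusted p = 0.303), with 25.1, 22.0 and 51.4 CPM in the controls against 16.1, 22.4 and 15.7 CPM in the knockouts. The *Msmo1* groups nevertheless overlapped, as knockout 2 exceeded control 2, and without control 3 the value was -0.38, when *Sqle* (-0.62) was lower. *Sc5d*, a sterol desaturase of the last steps, had 32.6, 28.6 and 41.6 CPM against 20.1, 28.0 and 25.8 CPM, narrowly apart (-0.48, SE 0.17, edgeR adjusted p = 0.269, or -0.31 without control 3).

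The reductases, demethylating dehydrogenases and the isomerase showed small or uncertain differences. *Tm7sf2* (log2 fold change -0.57), *Nsdhl* (-0.39) and *Hsd17b7* (-0.22) overlapped between the groups, and without control 3 their values were 0.03, -0.14 and -0.00. *Dhcr7*, the reductase that completes cholesterol, was at 23.3, 21.5 and 29.1 CPM in the controls and 22.6, 24.4 and 19.7 CPM in the knockouts, an overlap with a log2 fold change of -0.15 (95% interval -0.47 to 0.18, or -0.01 without control 3). *Ebp*, the sterol isomerase, was at 31.0, 32.6 and 30.8 CPM in the controls and 33.6, 34.7 and 32.9 CPM in the knockouts. *Ebp* was the 1 gene of the arm with all knockouts above all controls, by a log2 fold change of 0.10 (SE 0.06, edgeR adjusted p = 0.502).

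*Stard4* encodes a carrier that moves cholesterol between membranes and is an SREBP-2 target. It was at 40.2, 39.6 and 41.6 CPM in the controls and 23.7, 33.3 and 26.3 CPM in the knockouts. The controls lay close together above all knockouts, with a log2 fold change of -0.54 (SE 0.12, edgeR adjusted p = 0.113), and the value was -0.52 without control 3.

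In the fatty acid arm, 9 of the 11 genes were lower and the median log2 fold change was -0.26. Without overlap, 4 of the 11 were lower, against 11.4% of all genes. The shares of all genes were 8.55% lower at an unadjusted p under 0.05 and 2.65% called lower by DESeq2. None passed edgeR's adjusted threshold (smallest adjusted p = 0.0794, *Scd1*), 4 had an unadjusted p under 0.05, and DESeq2 called 3 lower (*Scd1*, *Fasn* and *Acly*). Without control 3 the median was -0.14, again with 9 of the 11 lower. The 4 genes lower without overlap necessarily stayed so when a mouse was left out, and no further gene of the arm joined them. A further 2 of the 11, *Acacb* and *Acss2*, were then higher without overlap, against 0 with all mice. Among all 14261 genes, 18.8% were then lower without overlap and 2492 genes were higher without overlap.

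*Acly* and *Acss2* supply acetyl-CoA, from citrate and from acetate. *Acly* was at 135, 128 and 145 CPM in the controls and 115, 116 and 109 CPM in the knockouts, with no overlap and a log2 fold change of -0.26 (SE 0.06, edgeR adjusted p = 0.127). *Acss2* was at 8.94, 8.69 and 15.4 CPM in the controls and 11.7, 9.25 and 14.3 CPM in the knockouts. The *Acss2* groups overlapped, and the log2 fold change of 0.09 (95% interval -0.53 to 0.72) turned negative with the muscle score as a covariate.

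*Fasn*, the synthase that assembles palmitate, was at 176, 168 and 216 CPM in the controls and 143, 144 and 129.8 CPM in the knockouts. All knockouts lay below all controls, with a log2 fold change of -0.43 (SE 0.10, edgeR adjusted p = 0.128). The carboxylases that make its substrate malonyl-CoA did not share this. *Acaca* overlapped between the groups (log2 fold change -0.21, 95% interval -0.49 to 0.08, or -0.10 without control 3). *Acacb*, whose product limits fatty acid entry into mitochondria and which is abundant in muscle, was at 7.35, 7.38 and 11.3 CPM in the controls and 10.9, 8.06 and 23.9 CPM in the knockouts, a log2 fold change of 0.72 (SE 0.41, edgeR adjusted p = 0.488). Knockout 3, its highest library, was also the library with the highest summed muscle markers. The *Acacb* log2 fold change was 0.13 without knockout 3 and 0.00 with the muscle score in the model. The part of muscle tissue in the *Acacb* difference was not tested.

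The largest difference of all 36 genes was in *Scd1*, the desaturase that makes oleate and palmitoleate. *Scd1* was at 141, 121 and 197 CPM in the control mice and 83.2, 70.7 and 53.2 CPM in the knockout mice. No knockout reached the lowest control, and the log2 fold change was -1.15 (SE 0.22, edgeR adjusted p = 0.0794), or -0.92 without control 3. The related *Scd2*, though more abundant per length, overlapped between the groups, with control 3 at 867 CPM and a log2 fold change of -0.30 (SE 0.23) that was -0.01 without that mouse.

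Elongation and desaturation of longer chains gave mixed values. *Elovl6*, which elongates palmitate to stearate, was at 34.8, 29.4 and 75.3 CPM in the controls and 31.1, 30.8 and 22.6 CPM in the knockouts, a log2 fold change of -0.72 (SE 0.35, edgeR adjusted p = 0.416) that was -0.19 without control 3. The *Elovl6* groups overlapped, with control 3 alone well above the rest. *Fads1*, the delta-5 desaturase of polyunsaturated fatty acids, was at 119, 138 and 147 CPM in the controls and 106, 119 and 107 CPM in the knockouts. The *Fads1* groups were only just apart, with a log2 fold change of -0.28 (SE 0.09, edgeR adjusted p = 0.215), while those of its partner *Fads2* overlapped (-0.24, or -0.14 without control 3). *Me1*, the malic enzyme that provides NADPH, was at 62.5, 64.5 and 67.3 CPM in the controls and 57.1, 60.1 and 65.8 CPM in the knockouts, with a log2 fold change of -0.09 (95% interval -0.25 to 0.07).

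Many members moved together from mouse to mouse also within a group. The counts below were not made over all genes, so whether this is particular to the members was not tested. Control 3 was the highest of all 6 libraries in 17 of the 20 sterol genes and in 10 of the 11 fatty acid genes. Within the knockout group, knockout 2 was the highest in 17 of the 20 sterol genes, and knockout 3 was the lowest of all 6 libraries in 14 of them. In the heat map these mice appear as a red column for control 3 and as the deepest blue columns for knockout 1 and knockout 3 in the sterol arm.

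**Figure D4:**
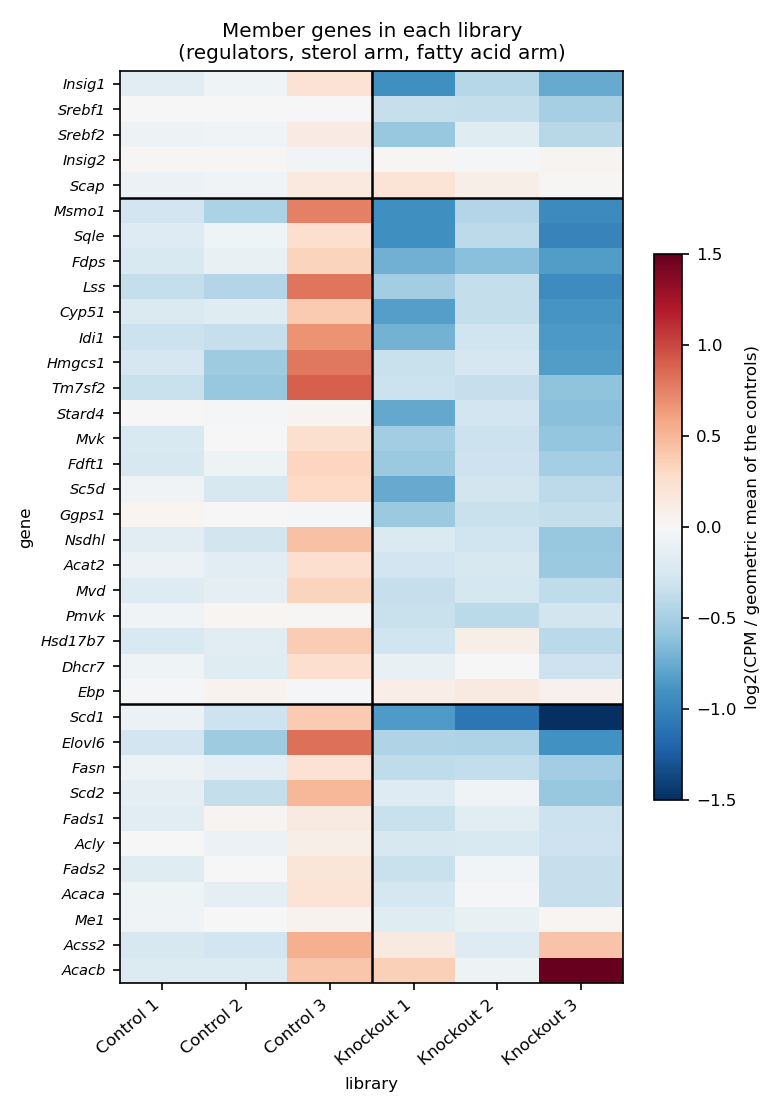
Log2 ratio of each gene's CPM to the geometric mean of the controls in each of the 6 libraries, with regulators at the top, the sterol arm in the middle and the fatty acid arm at the bottom. Control 3 is above the other controls in most rows, and the *Srebf1* row is nearly white in all controls and blue in all knockouts.

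Summed over the sterol arm, the level was 629.7, 612 and 969.8 CPM in the controls and 501, 586 and 456.5 CPM in the knockouts, so the sums did not overlap. The sum of the fatty acid arm was 1394, 1303 and 1929 CPM in the controls and 1230.3, 1311 and 1069.8 CPM in the knockouts. Here knockout 2 exceeded control 2. The largest term of this sum was *Scd2*, with 559, 482 and 867 CPM in the controls and 539, 593 and 415 CPM in the knockouts. The overlap of the sum thus leans on this gene. Control 3 was the highest library in both sums.

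Markers of other cells that make lipids varied over the same libraries. For comparison with the counts below, 11.4% of all genes were lower without overlap and 8.55% lower at an unadjusted p under 0.05. DESeq2 called 2.65% of all genes lower. Myelinating Schwann cells use much cholesterol and fatty acid, and the sum of 10 of their markers was 1405, 178 and 7099.6 CPM in the controls and 3069, 2174 and 807 CPM in the knockouts, highest in control 3. The list had 7 of its 10 genes lower, with 0 called by edgeR, 0 at an unadjusted p under 0.05 and 0 by DESeq2. With this score as a covariate, an alternative chosen after seeing the data, the medians were -0.50 in the sterol arm and -0.28 in the fatty acid arm, *Scd1* was called (edgeR adjusted p = 0.0330) and *Srebf1* was not (0.0740).

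The sum of 10 adipocyte markers was 299.5, 248 and 484 CPM in the controls and 256, 90.3 and 323 CPM in the knockouts, with 9 of the 10 lower, 3 of 10 apart and 0 called by edgeR (3 at an unadjusted p under 0.05, 2 by DESeq2). The muscle marker sum, of 10 genes that were all higher with overlapping groups, ranged from 192 to 3343 CPM in the controls and from 1096 to 9744 CPM in the knockouts (0 called by edgeR, 0 at an unadjusted p under 0.05, 0 by DESeq2). With the adipocyte score as a covariate the sterol and fatty acid medians were -0.46 and -0.25, and with the muscle score -0.56 and -0.32. Of 8 skin markers tested, 4 were lower and 4 higher, with 0 called by edgeR, 1 at an unadjusted p under 0.05 and 0 by DESeq2. Skin markers summed to between 10.8 and 88.2 CPM, and *Scd3*, a desaturase of the lipid-making sebocytes, was under 0.5 CPM in every library.

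**Figure D5:**
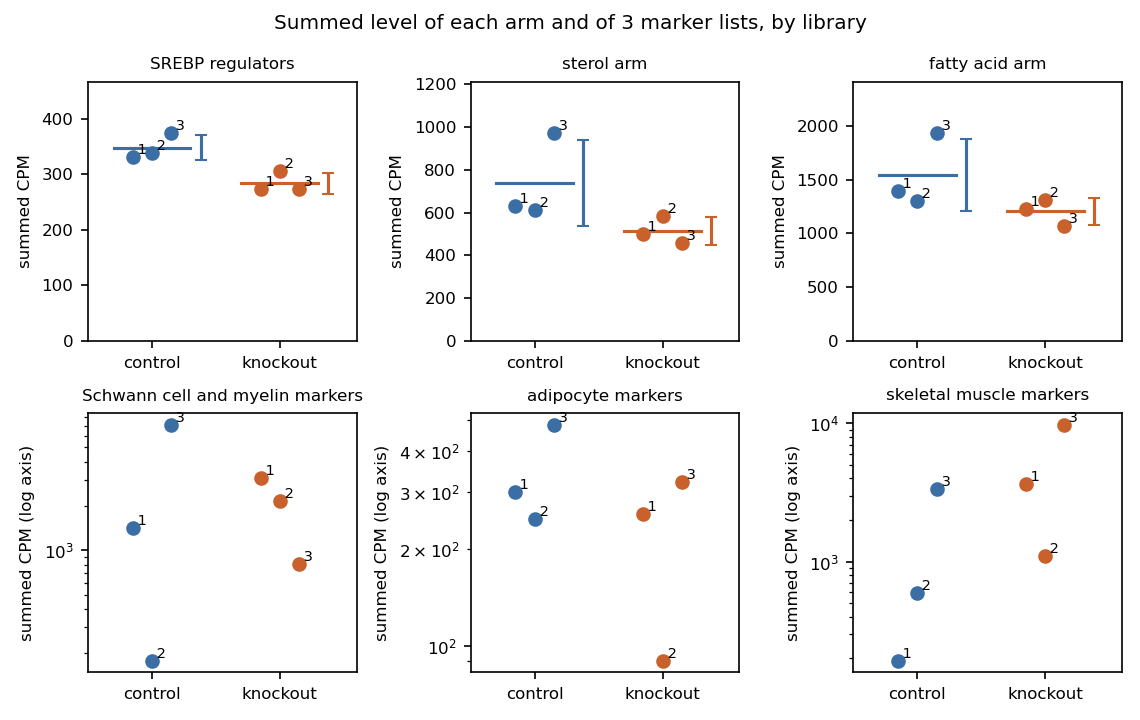
Summed CPM of the 3 gene groups (top, linear axes from 0, with mean and SD) and of 3 marker lists (bottom, log axes) in each mouse, numbered by replicate. Control 3 is highest in the sterol and fatty acid sums, at 969.8 and 1929 CPM, and in the Schwann cell and myelin sum, at 7099.6 CPM.

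Other marker lists separated the groups. Of all 14261 genes, 852 were higher and 1219 lower at an unadjusted p under 0.05. DESeq2 called 680 of all genes, and edgeR called 0.568% of them lower. The sum of 10 macrophage markers was between 985 and 1030 CPM in the controls and between 633 and 830.2 CPM in the knockouts, with 7 of the 10 lower and 4 lower and 1 higher at an unadjusted p under 0.05, 3 called by DESeq2 and 0 by edgeR (smallest adjusted p = 0.0508). The sum of 10 markers of dividing cells, which need lipid for new membranes, was between 449 and 574 CPM against 277 and 402 CPM, with 10 of 10 lower and 10 at an unadjusted p under 0.05, 6 called by DESeq2 and 0 by edgeR (smallest adjusted p = 0.0871). The erythroid sum was between 1997 and 2973 CPM against 676 and 983 CPM, with 6 of the 7 tested genes called lower by edgeR. All 4 Y-linked genes were higher in the knockouts (summed 41.7 to 61.2 CPM against 89.1 to 136 CPM), with 0 called by edgeR, 4 at an unadjusted p under 0.05 and 4 by DESeq2, and the sex of the mice is not given in the labels. The part of these differences in the lower level of the lipid synthesis genes was not tested.

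Genes around the pathway were compared in the same fit, and none passed edgeR's adjusted threshold. For comparison with the counts of these lists, 852 of all 14261 genes were higher and 1219 lower at an unadjusted p under 0.05. DESeq2 called 680 of all genes. Of 14 genes of SREBP processing and turnover, 7 were lower and 7 higher (median log2 fold change 0.00, 3 higher and 2 lower at an unadjusted p under 0.05, 0 by DESeq2), and the 2 with the largest differences were *Fbxw7*, which targets nuclear SREBP for degradation (0.47, edgeR adjusted p = 0.197), and *Erlin1* (-0.24, edgeR adjusted p = 0.326). The prenyl branch, in which farnesyl and geranylgeranyl groups go to proteins, ubiquinone and dolichol, had 6 of 10 lower and a median of -0.02 (0 at an unadjusted p under 0.05, 0 by DESeq2), and its largest values were *Pdss1* (-0.14) and *Zmpste24* (-0.11).

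Among 12 genes of sterol efflux, transport and esterification, 8 were higher and 4 lower, with a median log2 fold change of 0.12. At an unadjusted p under 0.05, 3 were higher and 2 lower, and DESeq2 called 2. The 2 lower genes were *Cyp27a1* (-0.53, groups apart, edgeR adjusted p = 0.129) and *Scarb1* (-0.27, groups overlapping, edgeR adjusted p = 0.305). *Mylip*, a ligase that removes lipoprotein receptors and is a target of the oxysterol receptor LXR, was at 37.2, 30.9 and 32.3 CPM in the controls and 54.4, 47.7 and 44.5 CPM in the knockouts. All knockouts were above all controls, by a log2 fold change of 0.54 (SE 0.10, edgeR adjusted p = 0.0751). *Abcg1*, a sterol exporter and also an LXR target, was at 11.6, 11.6 and 15.1 CPM in the controls and 25.4, 16.3 and 18.4 CPM in the knockouts (0.65, SE 0.19, edgeR adjusted p = 0.186). The other LXR-controlled exporter, *Abca1*, overlapped between the groups (0.13).

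Among 18 genes of fatty acid activation, elongation and triglyceride assembly, 13 were lower and the median log2 fold change was -0.14. At an unadjusted p under 0.05, 3 were lower and 0 higher, and DESeq2 called 3. The 2 largest differences were in enzymes of triglyceride assembly. *Dgat2*, which adds the last acyl chain, was at 19.7, 16.2 and 25.2 CPM in the controls and 13.1, 10.3 and 13.7 CPM in the knockouts (-0.72, SE 0.18, edgeR adjusted p = 0.142). *Agpat2*, which makes phosphatidic acid, was at 28.1, 26.4 and 29.0 CPM in the controls and 20.3, 16.9 and 19.5 CPM in the knockouts (-0.56, SE 0.09, edgeR adjusted p = 0.0518). Neither gene overlapped between the groups.

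Of 9 genes of AMPK subunits and upstream kinases, 5 were lower and 4 higher, with a median of -0.03, 1 lower at an unadjusted p under 0.05 and 0 called by DESeq2. The largest values were those of *Prkaa2* (1.26, SE 0.79) and *Prkag3* (1.15, SE 1.03), subunits that are abundant in skeletal muscle. Both overlapped between the groups.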

How the data were processed

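RNA was extracted with TRIzol from injured Achilles tendon and libraries were read on a BGI sequencer. The authors deposited, for 65053 RefSeq transcripts, an estimated count, not normalized, and a TPM value, scaled by the authors to transcript length. The submitters' processing notes name GRCm38.p6. The aligner and counting tool are not given in the sources used here. The deposited FPKM values, normalized counts and group averages were not used.

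Transcript values were added up per gene and rounded to whole reads, and 18049 of 18099 genes were matched to a symbol (99.72%). Groups and replicate numbers came from the labels. The test was edgeR 4.0.16 under R 4.3.3 (TMM scaling, filterByExpr, quasi-likelihood F test, Benjamini-Hochberg adjustment over 14261 genes, threshold 0.05). CPM are TMM-scaled, and the exact permutation test used log2(CPM + 0.5). A non-overlapping gene has all knockout values on 1 side of all control values. The script was tested on simulated data.

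Alternatives were DESeq2 1.42.0, RLE scaling, no filter, a replicate block, muscle and adipocyte scores (mean log2 CPM of the marker list) as covariates, and leaving out each mouse. A Schwann cell and myelin score and the counts without each mouse were added after seeing the data. Over all genes tested, same-numbered libraries deviated together only weakly (correlations 0.184, 0.118 and 0.31). The sterol arm did not follow this in replicate 3. Of its 20 genes, control 3 was the highest control in 17 and knockout 3 the lowest knockout in 15. The main test used the group only and was not paired. Pairing by the replicate numbers, taken from the labels, entered only through the block alternative, whose value is given where it changed a call. The members and lists were chosen with earlier results of these data known. Values in every library are given for members past the threshold, members whose groups do not overlap, the 5 regulators, and the 4 largest and 2 smallest differences of each arm. For related lists, the 2 largest differences are named, and the other genes named were chosen after their values were seen. Adjusted p-values rest on the difference between 3 mice per group and on estimates of spread that the fit shares between genes.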

Additional observations from a re-analysis of the deposited data

How the results depend on the processing

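Over the whole table, 128 genes were called by edgeR, 680 by DESeq2, 47 with the replicate block, 75 with the muscle score, 751 with the adipocyte score and 51 with the Schwann cell and myelin score, which was chosen after seeing the data. Leaving out a mouse gave between 8 (without control 2) and 276 genes (without knockout 2). Of the 5 regulators, 1 was called, against 3 by DESeq2 and 0 with the replicate block, the muscle score or the Schwann cell score, and between 0 and 2 without a mouse. In the sterol arm 0 were called, against 5 by DESeq2 and 2 with the adipocyte score (*Ggps1* and *Stard4*), and between 0 and 2 without a mouse (2 without knockout 2, *Sqle* and *Stard4*). In the fatty acid arm 0 were called, against 3 by DESeq2 and 1 with the Schwann cell score (*Scd1*). The replicate block changed no other call of a member than that of *Srebf1*, and RLE scaling and no filter changed none. The cause of these differences was not tested.

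Of the 36 members, 33 kept their sign in all 13 alternatives. The exceptions were *Insig2* (between -0.0036 and 0.0286 without a mouse), *Tm7sf2* (between -0.8275 and 0.0256) and *Acss2* (between -0.0699 and 0.4126, and -0.3211 with the muscle score). The member with the fewest reads, *Tm7sf2*, had between 68 (knockout 3) and 190 reads (control 3).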
